A study of Mus musculus with 7 samples.

Results

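Mitochondrial ribosomal protein genes were followed in SMB21 cells after CRISPR targeting of the cilium genes Ofd1 and Kif3a. The members were every row of the count table whose symbol is Mrpl or Mrps followed by a digit, without symbols that carry -ps, and 77 of the 24047 rows qualified. The rule used the symbols alone and no measured value, though this gene set was chosen with earlier results of these data known. These genes lie in the nucleus, and their proteins are made in the cytosol and imported into mitochondria, where they assemble with ribosomal RNA from the mitochondrial genome. The ribosome so built translates only the few proteins encoded by mitochondrial DNA, all of them subunits of the respiratory chain or of ATP synthase. Part of its proteins descend from bacterial ribosomal proteins, and part were added in the mitochondrial lineage and have no bacterial counterpart.

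By role, 50 members encode proteins of the large subunit, 30 with a bacterial homologue and 20 specific to mitochondria. A further 26 encode small-subunit proteins, 16 with a bacterial homologue and 10 specific to mitochondria. Mrps30 and Mrps18a were counted with the large subunit, where their proteins sit in the mammalian ribosome despite their names. The last member, Mrps36, is named as a ribosomal protein but encodes a small subunit of the 2-oxoglutarate dehydrogenase complex, and it was kept because the symbol rule takes it.

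SMB21 is a medulloblastoma line from the Ptch1tm1Mps/J background. Every group shares this Ptch mutant background, was grown as neurospheres and carried a lentiCRISPR vector, and RNA was collected 2 weeks after infection. The groups were Ofd1 CRISPR (3 libraries), Kif3a CRISPR (2 libraries) and GFP CRISPR (2 libraries), the last being the control guide. The Ofd1 protein sits at centrioles and basal bodies, and the Kif3a protein drives transport along the axoneme as part of kinesin-2. Primary cilia form poorly without either, and Hedgehog signalling runs through them. The sources used here do not say whether clones or pools of cells were sequenced, and 1 further GFP replicate that the design text counts was not analysed here. The labels call the replicates biological without saying whether they came from separate infections. A p-value here weighs a difference against the spread between these libraries, which may not be the spread between infections.

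Library totals ran from 17961767 to 23022701 counts, and levels are given as CPM, the count scaled to a common library size with TMM factors. Kif3a RNA was at 90.6, 93.1 and 97.4 CPM in Ofd1 CRISPR cells and 73.9 and 60.5 CPM in Kif3a CRISPR cells, against 104.0 CPM in each GFP control library. It fell in Kif3a CRISPR cells (log2 fold change -0.63, SE 0.09, adjusted p 8.5e-04). Ofd1 RNA was at 21.0, 20.0 and 22.0 CPM in Ofd1 CRISPR cells and 31.7 and 29.0 CPM in Kif3a CRISPR cells, against 22.6 and 23.2 CPM in GFP control cells. The level of Ofd1 RNA in Ofd1 CRISPR cells did not pass edgeR's test against GFP control (log2 fold change -0.12, SE 0.09, adjusted p 0.398), so the counts do not check that label. Counts per gene do not read the edited sequence. By the same test Ofd1 RNA was higher in Kif3a CRISPR cells than in GFP control cells (0.41, SE 0.10, adjusted p 0.0126). It was lower in Ofd1 CRISPR than in Kif3a CRISPR cells (-0.53, SE 0.09, adjusted p 0.0399), a call lost with the 2 groups alone (0.0962). Both calls were lost when some single libraries were left out. Granule neuron progenitor markers, fixed as the markers of the line's cell of origin, summed to between 3765 and 4062 CPM in Ofd1 CRISPR libraries and between 3831 and 4043 CPM in Kif3a CRISPR libraries, against 3789.9 and 3833 CPM in GFP control libraries. The level sum hides opposite changes: of these 10 markers, Atoh1, Pax6, Barhl1 and Meis1 were higher and Gli1, Ptch1, Mycn and Ccnd1 lower in each comparison with the control. Astrocyte markers summed to 646, 492 and 535 CPM in Ofd1 CRISPR libraries and to 634 and 521 CPM in Kif3a CRISPR libraries, against 469 and 485 CPM in GFP control libraries, so that all edited libraries lay above both controls. The sum hides mixed changes: of the 4 tested, 2 had a log2 fold change above 0 in each comparison, and only Slc1a2 was called, as higher. Slc1a3 was at 134 and 119 CPM and S100b at 22.4 and 26.5 CPM in Kif3a CRISPR libraries. In GFP control libraries Slc1a3 was at 152 and 148 CPM and S100b at 26.0 and 31.5 CPM. Gfap was at 134, 34.9 and 71.1 CPM in Ofd1 CRISPR libraries, against 43.3 and 43.4 CPM in GFP control libraries. Aqp4 was at 0 in every library. Endothelial and fibroblast markers summed to at most 3.10 CPM in any library. Microglia and macrophage markers summed to between 3.96 and 6.85 CPM in Ofd1 CRISPR libraries and to 3.37 and 3.67 CPM in Kif3a CRISPR libraries, against 63.4 CPM in GFP control replicate 1 and 3.11 CPM in replicate 2. Of the 17 such markers in the table, 14 had no count in GFP control replicate 2 and 2 had none in replicate 1, with Cx3cr1 at 0 in every library. Oligodendrocyte lineage markers summed to between 95.6 and 182 CPM in Ofd1 CRISPR libraries and to 103 and 143 CPM in Kif3a CRISPR libraries, against 285 and 270.4 CPM in GFP control libraries, most of it Pdgfra, with Mog and Sox10 at 0 throughout. The part of these cell markers in the results below was not tested.

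The promoters of the members whose level changed are shown first, since the results return to them. The sequences are the 150 bases before the annotated start, written 5′ to 3′ on the gene's strand, from RefSeq promoter windows of build GRCm38.p6. Capitals mark matches to short motifs of factors known to act on genes for mitochondrial proteins: CCGGAAG, bound by ETS factors such as GABP; CACGTG, the E-box bound by MYC and its relatives; and GCGCATGC, bound by NRF1. Of the 9 members called in a comparison with the control, 8 were in the promoter table.
Mrps6, chr16:92058186-92058335, + strand: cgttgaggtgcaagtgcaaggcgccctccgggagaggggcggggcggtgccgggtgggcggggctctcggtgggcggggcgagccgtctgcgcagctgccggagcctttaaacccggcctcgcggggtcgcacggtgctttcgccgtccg
Mrps23, chr11:88204238-88204387, + strand: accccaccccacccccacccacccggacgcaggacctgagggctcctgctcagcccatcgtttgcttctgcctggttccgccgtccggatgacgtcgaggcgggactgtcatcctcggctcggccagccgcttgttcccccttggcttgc
Mrpl20, chr4:155802728-155802877, + strand: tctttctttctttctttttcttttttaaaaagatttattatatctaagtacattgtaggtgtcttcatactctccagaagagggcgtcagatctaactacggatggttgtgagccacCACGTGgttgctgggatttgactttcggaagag
Mrpl39, chr16:84735245-84735394, - strand: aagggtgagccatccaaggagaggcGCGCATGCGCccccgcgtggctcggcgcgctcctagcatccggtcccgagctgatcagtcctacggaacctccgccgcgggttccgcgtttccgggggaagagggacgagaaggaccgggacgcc
Mrpl3, chr9:105053118-105053267, + strand: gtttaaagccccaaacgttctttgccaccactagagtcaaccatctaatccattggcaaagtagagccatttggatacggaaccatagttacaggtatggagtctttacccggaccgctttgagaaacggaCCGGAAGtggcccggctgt
Mrpl55, chr11:59202336-59202485, + strand: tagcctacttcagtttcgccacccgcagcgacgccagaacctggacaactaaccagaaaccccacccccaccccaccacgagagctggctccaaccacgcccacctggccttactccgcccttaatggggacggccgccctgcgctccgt
Mrpl34, chr8:71464776-71464925, + strand: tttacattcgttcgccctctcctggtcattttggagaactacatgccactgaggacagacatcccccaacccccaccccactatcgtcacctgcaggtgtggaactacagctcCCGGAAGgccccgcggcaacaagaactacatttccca
Mrpl2, chr17:46646071-46646220, + strand: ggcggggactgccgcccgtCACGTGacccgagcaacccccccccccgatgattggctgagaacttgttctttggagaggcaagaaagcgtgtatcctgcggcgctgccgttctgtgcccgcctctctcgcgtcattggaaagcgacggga
The stretches of Mrpl34 and Mrpl3 each hold the ETS motif, those of Mrpl20 and Mrpl2 hold the E-box, and that of Mrpl39 holds overlapping NRF1 matches on both strands. The stretches of Mrps6, Mrps23 and Mrpl55 hold none of the motifs searched.

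All 77 members were expressed and all passed the filter on low counts. Their counts ran from 58 to 2857 reads in a library, the median member averaged 48.6 CPM over the 7 libraries, and 75 members averaged over 10 CPM. Divided by the median length of the gene's protein-coding transcripts, the median level in GFP control cells was 37.7 CPM per kb, with quartiles of 24.1 and 60.2 CPM per kb. Genes of cytosolic ribosomal proteins, 76 of which were tested, had a median of 612 CPM per kb in the same cells. Large-subunit members had a median of 45.8 CPM per kb and small-subunit members one of 32.1 CPM per kb. The ranges of the subunits overlapped almost wholly, from 4.56 to 129 CPM per kb and from 9.25 to 107 CPM per kb.

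The highest levels per kb in GFP control cells were those of Mrpl13 (129 CPM per kb), Mrpl17 (125 CPM per kb) and Mrpl42 (118 CPM per kb), all of the large subunit. The lowest were Mrpl32 (4.56 CPM per kb), Mrps36 (4.99 CPM per kb) and Mrpl47 (7.96 CPM per kb). Mrpl32 is the large-subunit protein that the inner-membrane m-AAA protease cuts during maturation, and its transcripts and those of Mrpl47 are long, with median lengths of 3013 and 3364 bases. A low level per kb there rests on annotated length as well as on counts, since Mrpl47 averaged 26.8 CPM ± 0.54 (SD, n = 2) in GFP control cells. In CPM, Mrps36 was the lowest member in mean level, at 4.83, 3.39 and 3.29 CPM in Ofd1 CRISPR cells and 2.98 and 3.99 CPM in Kif3a CRISPR cells, against 3.44 and 2.91 CPM in GFP control cells.

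**Figure D1:**
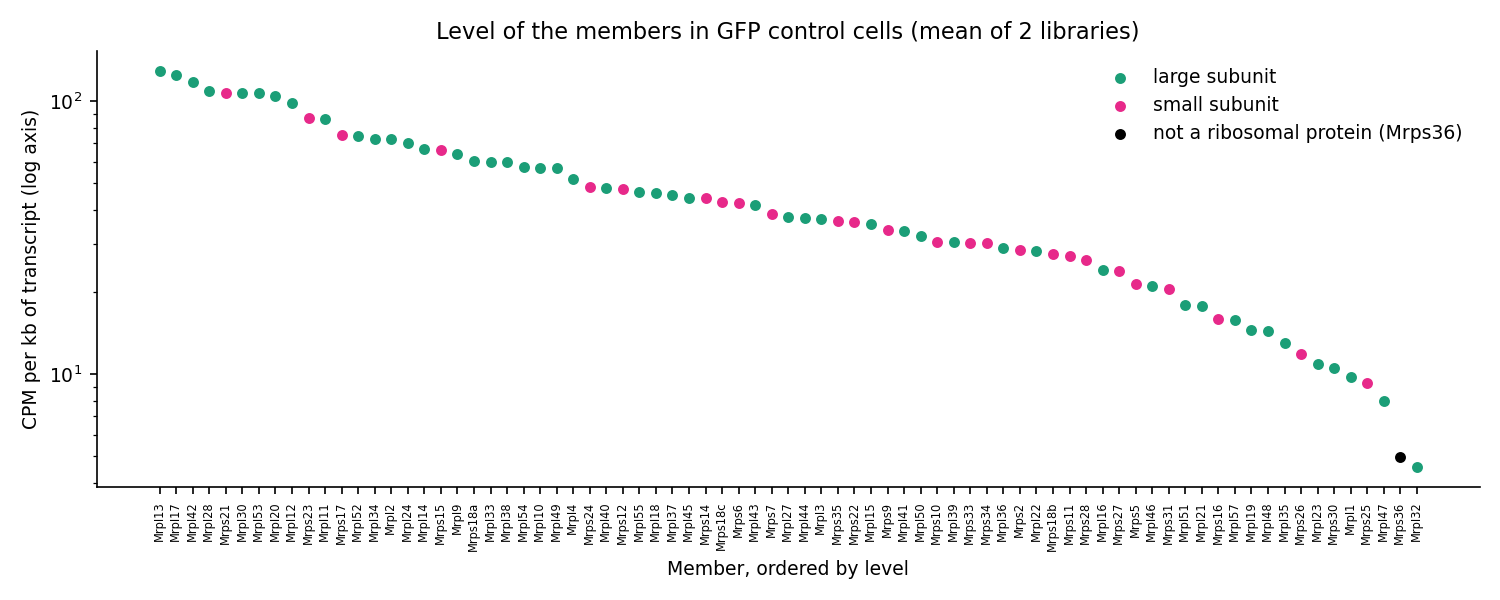
Level of each of the 77 members in GFP control cells, as the mean of 2 libraries in CPM per kb of transcript on a log axis, ordered from high to low. Points are coloured by subunit; both subunits spread along the whole order, from 129 CPM per kb (Mrpl13) to 4.56 CPM per kb (Mrpl32).

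The members varied little across the 7 libraries. The median coefficient of variation of a member over the 7 libraries was 6.35%, against 9.04% for the 8908 tested genes in the same range of mean CPM, and 60 members lay under that value. The highest library exceeded the lowest by a median factor of 1.20, and by under 1.5 for 74 members. Mrps36, the member with the fewest reads, had the widest ratio, 1.66. Mrpl12, the large-subunit stalk protein that recruits translation factors, was at 128, 135 and 142 CPM in Ofd1 CRISPR cells and 123 and 149 CPM in Kif3a CRISPR cells, against 134 and 125 CPM in GFP control cells. These groups overlapped, and the change passed the test in neither comparison (log2 fold change 0.06, SE 0.09 in Ofd1 CRISPR cells and 0.07, SE 0.09 in Kif3a CRISPR cells).

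In Ofd1 CRISPR cells against GFP control, 1 member was higher and 3 were lower at an adjusted p under 0.05, by edgeR's quasi-likelihood test with Benjamini-Hochberg adjustment over the 12875 tested genes. Mrps6 rose, and Mrpl55, Mrpl34 and Mrpl2 fell. In bulk libraries, fewer cells of a type and less RNA per cell cannot be told apart. The 4 members are 5.19% of the 77, whereas 14.9% of all tested genes were called, 6.79% higher and 8.09% lower. The median log2 fold change of the members was 0.00, against 0.00 for all tested genes, and the middle 50% of members lay between -0.08 and 0.09, against -0.15 and 0.16 for all tested genes. At an unadjusted p under 0.05 there were 12 members, or 15.6%, against 30.9% of all tested genes. In 17 members (22.1%) all Ofd1 CRISPR libraries lay above both control libraries, and in 14 (18.2%) all lay below, against 24.5% and 25% of all tested genes. The calls depend on the control libraries: no member was called without GFP control replicate 1 and none without replicate 2, where 664 and 816 of all genes were called in place of 1915. Without Ofd1 CRISPR replicate 1 or replicate 2 the count was 0 higher and 1 lower, and without Kif3a CRISPR replicate 1 or 2, which enter through the shared spread, it was 0 higher and 3 lower.

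In Kif3a CRISPR cells against GFP control, 5 members were higher and 4 were lower by the same test. Mrps6, Mrps23, Mrpl20, Mrpl39 and Mrpl3 rose, and Mrpl55, Mrpl34, Mrpl2 and Mrpl4 fell. They make 11.7% of the members, whereas 20.1% of all tested genes were called, 9.19% higher and 10.9% lower. The median log2 fold change of the members was 0.06, against 0.01 for all tested genes, with the middle 50% between -0.05 and 0.12, against -0.18 and 0.18. At an unadjusted p under 0.05 there were 18 members, or 23.4%, against 33.9% of all tested genes. In 29 members (37.7%) both Kif3a CRISPR libraries lay above both control libraries, and in 12 (15.6%) both lay below, against 34% and 32.4% of all tested genes. Leaving out a GFP control or Kif3a CRISPR library leaves 1 in its group. In each of those fits fewer members were called, and fewer of all tested genes as well. Without Ofd1 CRISPR replicate 2 the count was 5 members higher and 2 lower, with 2382 of all genes called in place of 2584. The median of the members turned on the pair of Kif3a CRISPR libraries, being 0.12 without replicate 1 and -0.02 without replicate 2. Both comparisons use the same 2 GFP control libraries, so the values of the groups are set side by side below and their likeness is no independent evidence.

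By role, the calls in Ofd1 CRISPR cells were 3 of the 50 large-subunit members, all lower, and 1 of the 26 small-subunit members, which was higher. In Kif3a CRISPR cells 7 large-subunit members passed, 3 higher and 4 lower, and 2 small-subunit members, both higher. The members that fell are among the 30 large-subunit members with a bacterial homologue. Of these 30, 10% were called in Ofd1 CRISPR cells, all lower, and 20% in Kif3a CRISPR cells, 2 higher and 4 lower. Of all tested genes 14.9% and 20.1% were called in either direction, and 8.09% and 10.9% were called lower. Of the 30 members specific to mitochondria, none passed in Ofd1 CRISPR cells, where 4 had an unadjusted p under 0.05, and 2 passed in Kif3a CRISPR cells, both higher. The median log2 fold changes were -0.02 in Ofd1 CRISPR cells and 0.03 in Kif3a CRISPR cells for the large subunit, and 0.01 and 0.06 for the small subunit. No difference between the subunits was tested.

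**Figure D2:**
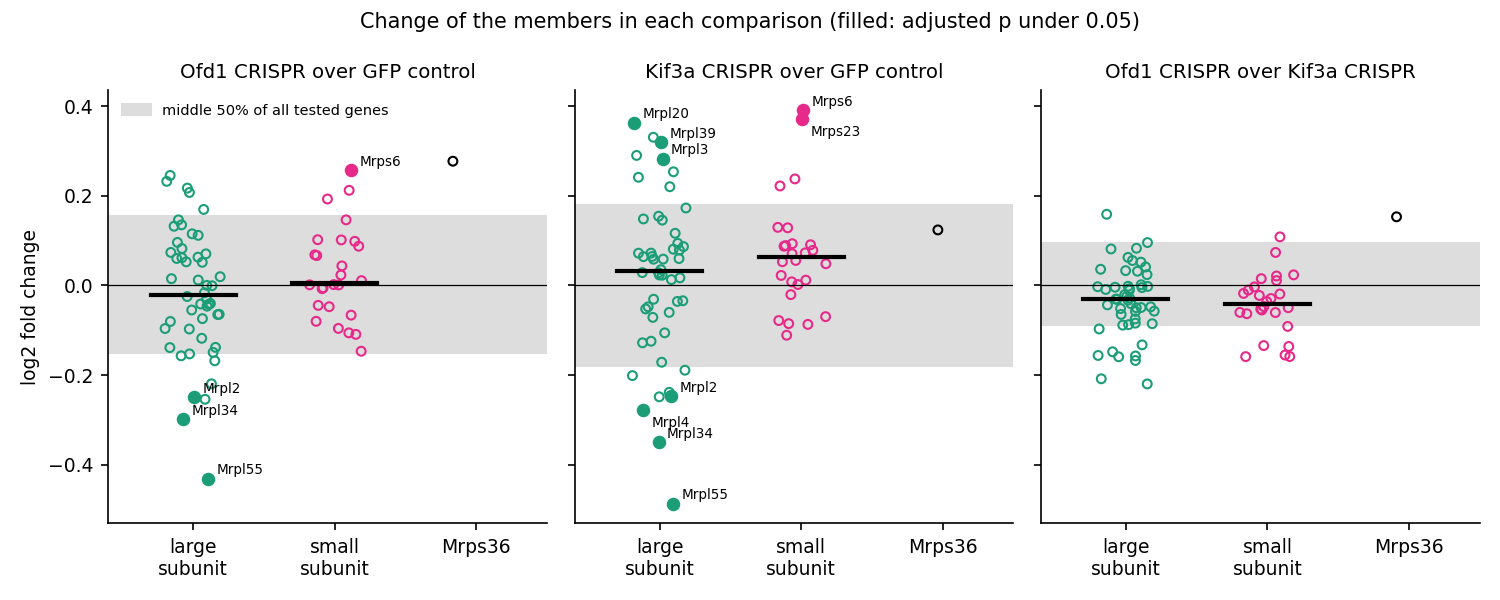
Log2 fold change of each member in the 3 comparisons, by subunit, with filled points for members past an adjusted p of 0.05, a bar at each subunit's median, and a grey band for the middle 50% of all tested genes. The named points are the 4 members called in Ofd1 CRISPR cells and the 9 called in Kif3a CRISPR cells; most other points lie within the band, and no member is filled where Ofd1 CRISPR is set against Kif3a CRISPR.

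Among the small-subunit members, Mrps6, the homologue of bacterial ribosomal protein S6, was at 43.0, 45.1 and 40.1 CPM in Ofd1 CRISPR cells and 46.7 and 47.1 CPM in Kif3a CRISPR cells, against 35.7 and 35.8 CPM in GFP control cells. All 5 edited libraries lay above both control libraries. The log2 fold change was 0.26 (SE 0.08, adjusted p 0.0440) in Ofd1 CRISPR cells and 0.39 (SE 0.08, adjusted p 0.00701) in Kif3a CRISPR cells. The Ofd1 call was kept in only 1 of 7 fits that leave out a library, that without Ofd1 CRISPR replicate 3, with adjusted p of 0.245 and 0.226 without GFP control replicate 1 and 2, 0.0803 and 0.121 without Ofd1 CRISPR replicate 1 and 2, and 0.0613 and 0.0609 without Kif3a CRISPR replicate 1 and 2. It was also lost by DESeq2 (0.0778), without the filter on low counts (0.0531) and with the 2 groups alone (0.0578). The Kif3a call was lost without either control library (0.0705 without replicate 1, 0.0566 without replicate 2) and without Kif3a CRISPR replicate 1 (0.0562).

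Mrps23, a small-subunit protein specific to mitochondria, was at 67.7, 65.4 and 67.4 CPM in Ofd1 CRISPR cells and 73.1 and 76.2 CPM in Kif3a CRISPR cells, against 58.1 and 57.2 CPM in GFP control cells. Its libraries did not overlap between the groups, with the Kif3a CRISPR libraries highest. It rose in Kif3a CRISPR cells, with the smallest adjusted p of any member (log2 fold change 0.37, SE 0.07, adjusted p 0.00439), and missed the threshold in Ofd1 CRISPR cells (0.21, SE 0.07, adjusted p 0.0528). Of the 7 fits that leave out a library, the Kif3a call was lost only without GFP control replicate 2 (adjusted p 0.0524).

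The large-subunit members that rose did so in Kif3a CRISPR cells. Mrpl20, whose homologue in Escherichia coli binds ribosomal RNA early in assembly and whose promoter stretch holds the E-box, was at 58.0, 60.3 and 60.1 CPM in Ofd1 CRISPR cells and 61.9 and 70.7 CPM in Kif3a CRISPR cells, against 52.4 and 50.5 CPM in GFP control cells. Both Kif3a CRISPR libraries were above all others. The log2 fold change was 0.36 (SE 0.08, adjusted p 0.0106) in Kif3a CRISPR cells and 0.21 (SE 0.08, adjusted p 0.0913) in Ofd1 CRISPR cells. The Kif3a call was lost without either control library (0.0646 without replicate 1, 0.0930 without replicate 2) and without Kif3a CRISPR replicate 2 (0.0771).

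Mrpl39, specific to mitochondria, was at 82.5, 80.2 and 83.6 CPM in Ofd1 CRISPR cells and 90.5 and 84.0 CPM in Kif3a CRISPR cells, against 73.3 and 66.5 CPM in GFP control cells. All edited libraries were above both control libraries. It rose in Kif3a CRISPR cells (log2 fold change 0.32, SE 0.08, adjusted p 0.0148), and missed the threshold in Ofd1 CRISPR cells (0.23, SE 0.07, adjusted p 0.0515). Its Kif3a call did not hold without GFP control replicate 2 (0.164) or without Kif3a CRISPR replicate 1 (0.130). Mrpl3, which lies near the peptidyl transferase centre and whose promoter stretch holds the ETS motif, was at 90.2, 92.9 and 98.2 CPM in Ofd1 CRISPR cells and 101 and 106 CPM in Kif3a CRISPR cells, against 87.0 and 83.7 CPM in GFP control cells. Its groups did not overlap, the Kif3a CRISPR libraries again being highest. The log2 fold change was 0.28 (SE 0.07, adjusted p 0.0203) in Kif3a CRISPR cells and 0.14 (SE 0.07, adjusted p 0.207) in Ofd1 CRISPR cells. The Kif3a call was lost without GFP control replicate 1 (0.102) or 2 (0.156) and without Kif3a CRISPR replicate 1 (0.0730) or 2 (0.102).

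Of the members that fell, Mrpl55, a large-subunit protein, had the largest change. It was at 24.4, 25.2 and 28.5 CPM in Ofd1 CRISPR cells and 23.1 and 27.1 CPM in Kif3a CRISPR cells, against 34.9 and 35.3 CPM in GFP control cells. All 5 edited libraries lay below both control libraries, while the edited groups overlapped each other. The log2 fold change was -0.43 (SE 0.10, adjusted p 0.0128) in Ofd1 CRISPR cells and -0.49 (SE 0.11, adjusted p 0.00857) in Kif3a CRISPR cells. The calls were lost without GFP control replicate 1 (0.0875 and 0.0534) or replicate 2 (0.0923 and 0.0542), and the Kif3a call also without Kif3a CRISPR replicate 1 (0.124).

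Mrpl34, the homologue of bacterial L34 and the other member whose promoter stretch holds the ETS motif, was at 35.7, 35.8 and 36.0 CPM in Ofd1 CRISPR cells and 32.1 and 37.1 CPM in Kif3a CRISPR cells, against 43.4 and 44.7 CPM in GFP control cells. Both edited groups lay wholly below the control. The log2 fold change was -0.30 (SE 0.08, adjusted p 0.0284) in Ofd1 CRISPR cells and -0.35 (SE 0.09, adjusted p 0.0166) in Kif3a CRISPR cells. The Ofd1 call was lost without GFP control replicate 1 (0.145) or 2 (0.205) and Ofd1 CRISPR replicate 1 (0.0598) or 2 (0.0720), and the Kif3a call without GFP control replicate 1 (0.0885) or 2 (0.118) and Kif3a CRISPR replicate 1 (0.167).

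Mrpl2 and Mrpl4, homologues of bacterial L2, which is needed for peptidyl transfer, and L4, which lines the exit tunnel, were lower by smaller amounts. Mrpl2 was at 58.3, 62.5 and 61.6 CPM in Ofd1 CRISPR cells and 58.4 and 63.4 CPM in Kif3a CRISPR cells, against 71.7 and 72.7 CPM in GFP control cells. Its log2 fold change was -0.25 in both (SE 0.07, adjusted p 0.0360 in Ofd1 CRISPR cells; SE 0.08, adjusted p 0.0437 in Kif3a CRISPR cells). Mrpl4 was at 34.2, 35.4 and 36.4 CPM in Ofd1 CRISPR cells and 32.3 and 37.2 CPM in Kif3a CRISPR cells, against 42.1 CPM in each control library. It fell in Kif3a CRISPR cells (log2 fold change -0.28, SE 0.09, adjusted p 0.0477) and missed the threshold in Ofd1 CRISPR cells (-0.25, SE 0.08, adjusted p 0.0566). In both genes the edited libraries lay below both control libraries. The Mrpl2 calls were lost without GFP control replicate 1 (0.191 in Ofd1 CRISPR cells, 0.187 in Kif3a CRISPR cells) or 2 (0.231 and 0.215), the Ofd1 call also without Ofd1 CRISPR replicate 1 (0.0937) or 2 (0.0636), and the Kif3a call without Ofd1 CRISPR replicate 2 (0.0603) and Kif3a CRISPR replicate 1 (0.265) or 2 (0.0546). The Mrpl4 call was lost without either control library (0.204 without replicate 1, 0.195 without replicate 2), and also when Ofd1 CRISPR replicate 2 (0.0690) or Kif3a CRISPR replicate 1 (0.316) was left out. DESeq2 did not call Mrpl2 (adjusted p 0.0598) or Mrpl4 (0.0778) in Kif3a CRISPR cells. With library totals only, Mrpl2 was called in neither comparison (0.0583 in Ofd1 CRISPR cells, 0.0665 in Kif3a CRISPR cells) and Mrpl4 was not called (0.0701), and without the filter on low counts the Kif3a calls of Mrpl2 (0.0529) and Mrpl4 (0.0501) were lost.

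**Figure D3:**
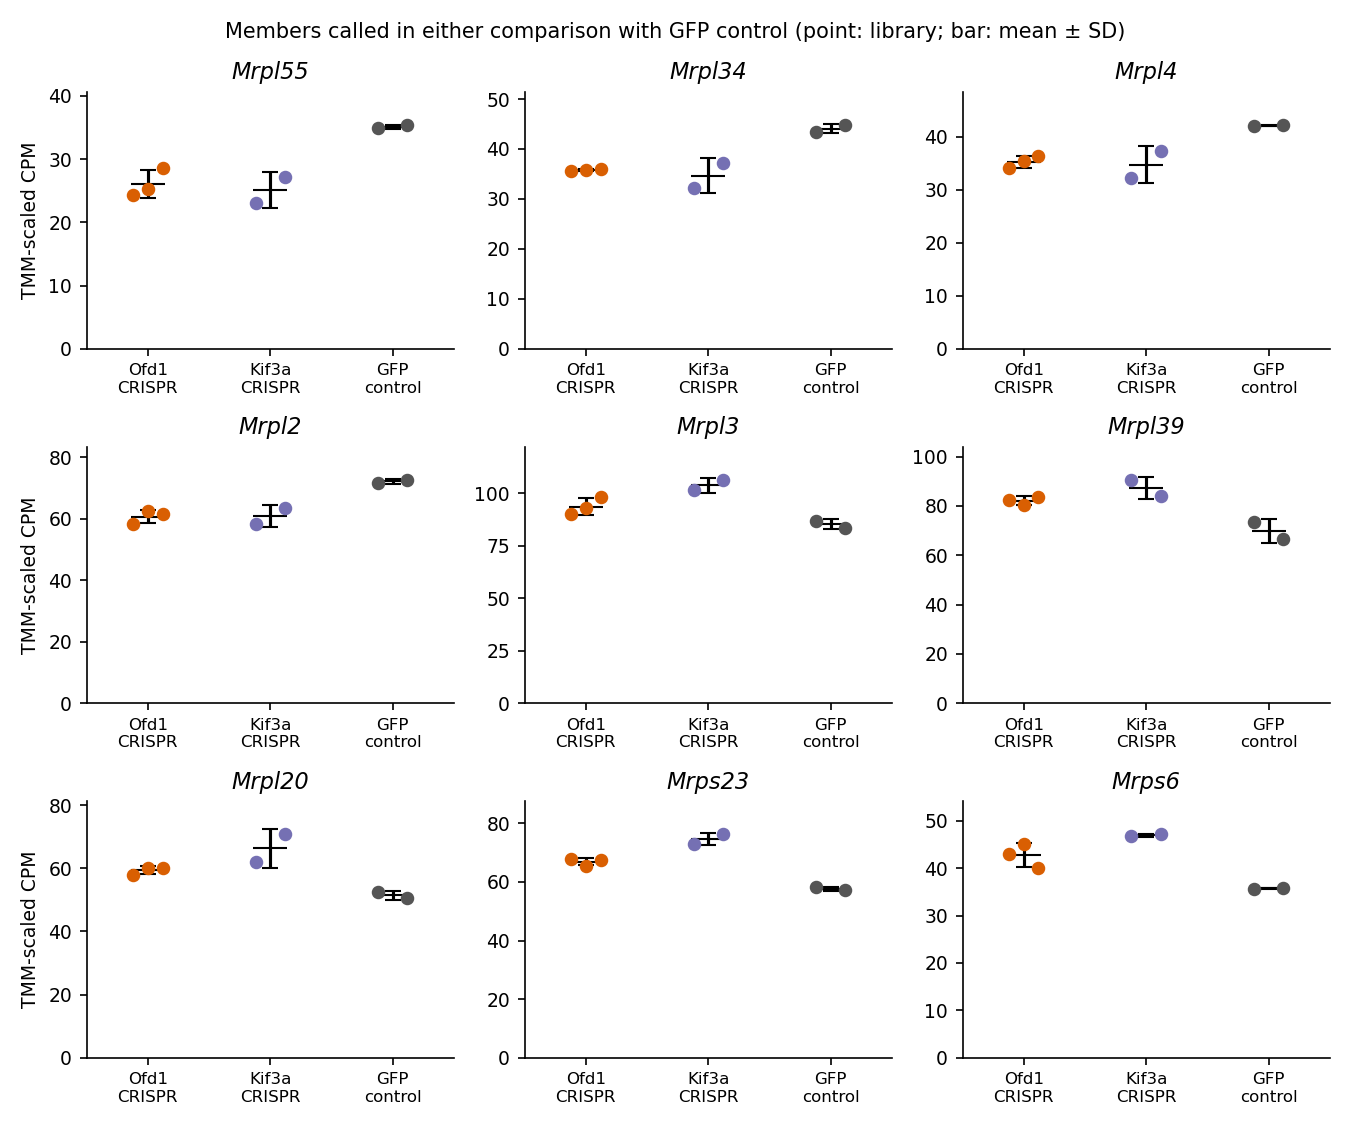
TMM-scaled CPM per library of the 9 members called in a comparison with GFP control, in Ofd1 CRISPR (3 libraries), Kif3a CRISPR (2) and GFP control cells (2), with the mean and SD of each group and axes that start at 0. The 4 genes that fell come first, and Mrpl55 shows the largest gap, with 24.4 to 28.5 CPM and 23.1 to 27.1 CPM in the edited groups below 34.9 and 35.3 CPM in the control.

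The paralogues Mrps18a, Mrps18b and Mrps18c, whose proteins occupy different places in the mitochondrial ribosome, did not pass in either comparison. Mrps18a, in the large subunit, was at 40.9, 41.3 and 40.4 CPM in Ofd1 CRISPR cells and 42.1 and 45.3 CPM in Kif3a CRISPR cells, against 45.1 and 45.5 CPM in GFP control cells. Mrps18c, the small-subunit member with the bacterial S18 homologue, was at 27.6, 29.2 and 30.8 CPM in Ofd1 CRISPR cells and 30.3 and 34.0 CPM in Kif3a CRISPR cells, against 26.7 and 27.7 CPM in GFP control cells. Both Kif3a CRISPR libraries lay above both controls for Mrps18c, with a log2 fold change of 0.24 (SE 0.10) and an adjusted p of 0.103. For Mrps18b all groups overlapped, with log2 fold changes of -0.05 in Ofd1 CRISPR cells and 0.00 in Kif3a CRISPR cells. Mrps30, a large-subunit protein, was at 38.0, 43.0 and 41.0 CPM in Ofd1 CRISPR cells and 37.8 and 40.1 CPM in Kif3a CRISPR cells, against 34.0 and 36.0 CPM in GFP control cells, which missed the threshold (adjusted p 0.0943 and 0.246).

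How large a change the members could hide was set by their errors. The median SE of a member's log2 fold change was 0.08 in Ofd1 CRISPR cells and 0.09 in Kif3a CRISPR cells. The 95% interval lay within 1.5-fold either way for 75 of 77 members in Ofd1 CRISPR cells and for 74 in Kif3a CRISPR cells. The widest interval in each comparison was that of Mrps36, from -0.23 to 0.78 on the log2 scale in Ofd1 CRISPR cells and from -0.43 to 0.68 in Kif3a CRISPR cells. Mrpl13, the member with the highest level per kb, was at 108, 119.8 and 123 CPM in Ofd1 CRISPR cells and 112 and 127 CPM in Kif3a CRISPR cells, against 126 and 121 CPM in GFP control cells, with intervals from -0.26 to 0.09 and from -0.24 to 0.14.

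Set directly against each other, Ofd1 CRISPR and Kif3a CRISPR cells differed in no member by edgeR's quasi-likelihood test, and DESeq2 called none either. At an unadjusted p under 0.05 there were 2 members (2.6%), against 9.55% of all tested genes. Among all tested genes 0.179% were called, 0.171% higher and 0.00777% lower in Ofd1 CRISPR cells. The median log2 fold change of the members was -0.03, against 0.00 for all tested genes, and it was -0.09 without Kif3a CRISPR replicate 1 and 0.03 without Kif3a CRISPR replicate 2. The 95% interval lay within 1.5-fold either way for 76 members. Mrps23, higher in both Kif3a CRISPR libraries than in the 3 Ofd1 CRISPR libraries, had a log2 fold change of -0.16 (SE 0.07, unadjusted p 0.0330, adjusted p 0.483).

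The summed level of the members varied within groups by more than the group means differed. Summed over the 77 members, the level was 3789.7, 3942 and 4036 CPM in Ofd1 CRISPR cells and 3844 and 4195 CPM in Kif3a CRISPR cells, against 3980.0 and 3868 CPM in GFP control cells. The group means were 3922 CPM ± 124 (SD, n = 3) in Ofd1 CRISPR cells and 4019 CPM ± 248 (SD, n = 2) in Kif3a CRISPR cells, against 3924 CPM ± 79.2 (SD, n = 2) in GFP control cells, so that the groups overlapped. Within the Kif3a CRISPR group, 69 of 77 members were higher in replicate 2 than in replicate 1, against 48.5% of all tested genes, by a median of 0.12 on the log2 scale. Within the Ofd1 CRISPR group, 48 members were lowest in replicate 1, against 34.3% of all tested genes, and 44 were highest in replicate 3, against 35.5%. In the control, 49 members were higher in replicate 1 than in replicate 2, against 48.6% of all tested genes. As members share a library, these counts describe libraries and not conditions.

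Genes of the respiratory chain and ATP synthase, the machinery that the mitochondrial ribosome serves, took like positions by library. Their summed level was 11191, 11516 and 11760.0 CPM in Ofd1 CRISPR cells and 11262 and 12293 CPM in Kif3a CRISPR cells, against 11944 and 11411 CPM in GFP control cells. Of the 90 tested, 3 were higher and 6 lower in Ofd1 CRISPR cells, and 10 higher and 6 lower in Kif3a CRISPR cells. These are 10% and 17.8% of the list, against 14.9% and 20.1% of all tested genes called in either direction. By direction, all tested genes had 6.79% higher and 8.09% lower in Ofd1 CRISPR cells, and 9.19% higher and 10.9% lower in Kif3a CRISPR cells. The median log2 fold changes of the respiratory chain list were 0.01 and 0.03. The cytosolic ribosomal protein genes summed to 37017, 38437 and 40966 CPM in Ofd1 CRISPR cells and 35650.0 and 41133 CPM in Kif3a CRISPR cells, against 43405 and 41370.0 CPM in GFP control cells. All 5 edited libraries lay below both control libraries in that sum. Within each group, though, the order of the libraries was the same as for the members and the respiratory chain genes, so that order is not particular to mitochondrial genes. Of the 76 tested cytosolic ribosomal protein genes, 0 were higher and 6 lower in Ofd1 CRISPR cells, and 1 was higher and 13 lower in Kif3a CRISPR cells. That is 7.89% and 18.4% called in either direction, also under the shares of all tested genes. Most of these calls were lower, so the shares called lower are the closer comparison. In Ofd1 CRISPR cells that share was 7.89%, against 8.09% of all tested genes. In Kif3a CRISPR cells it was above the 10.9% of all tested genes called lower. The median log2 fold changes of the cytosolic list were -0.11 and -0.12. The difference between these lists and the members was not tested.

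**Figure D4:**
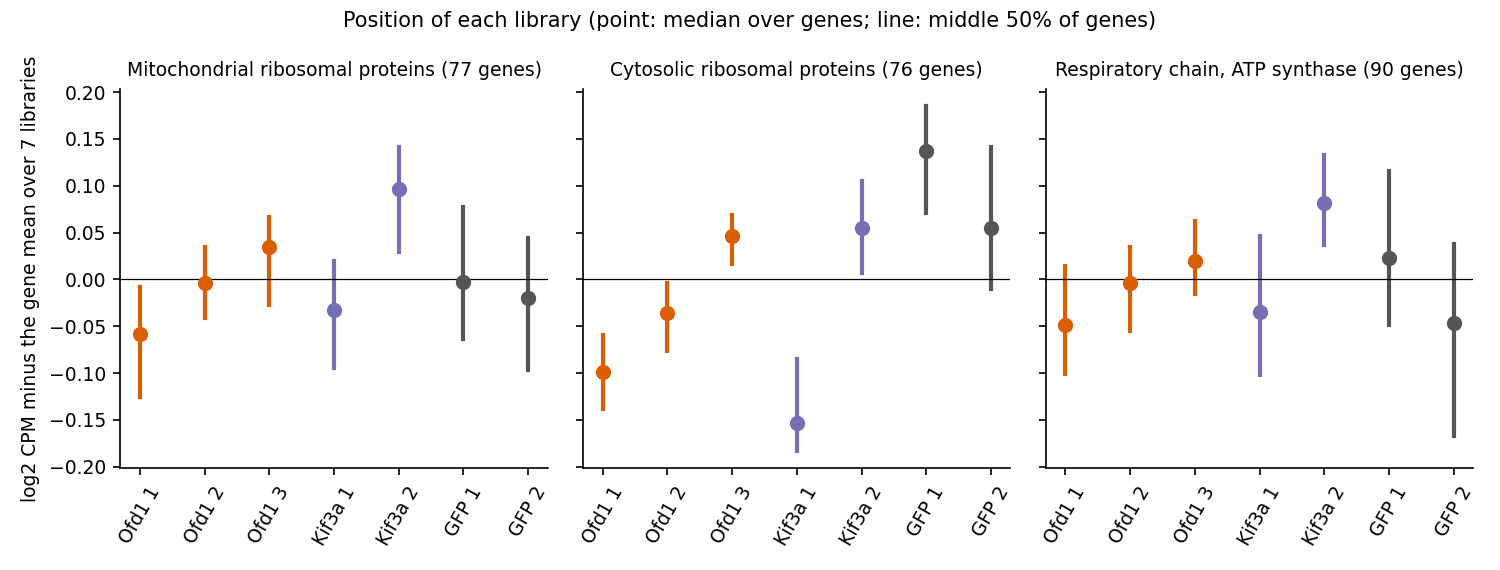
Position of each library for the members, the cytosolic ribosomal protein genes and the respiratory chain genes, as log2 CPM minus the gene's mean over the 7 libraries, with a point at the median gene and a line over the middle 50% of genes. For the members the medians run from -0.06 (Ofd1 CRISPR replicate 1) to 0.10 (Kif3a CRISPR replicate 2) with both controls near 0. For the cytosolic ribosomal protein genes both controls stand above 0, at 0.14 and 0.06. Kif3a CRISPR replicate 2 (0.06) and Ofd1 CRISPR replicate 3 (0.05) also stand above 0 there, and the other edited libraries stand below it.

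Genes that act with the members in mitochondrial translation were counted by list. Of 6 further proteins of the mitochondrial ribosome that carry other symbols, none passed in Ofd1 CRISPR cells, where 1 had an unadjusted p under 0.05. In Kif3a CRISPR cells 1 was higher, or 16.7% of the list, against 20.1% of all tested genes called and 9.19% called higher. This was Ptcd3, a pentatricopeptide repeat protein of the small subunit. It was at 129, 135 and 149 CPM in Ofd1 CRISPR cells and 151.9 and 152 CPM in Kif3a CRISPR cells, against 118 and 126 CPM in GFP control cells (log2 fold change 0.32, SE 0.08, adjusted p 0.0165 in Kif3a CRISPR cells). That call was lost without GFP control replicate 1 (0.162) or 2 (0.0549) and without Kif3a CRISPR replicate 1 (0.106) or 2 (0.0742).

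Of 25 genes for assembly of the ribosome and modification of its RNA, 2 were higher and 1 lower in Ofd1 CRISPR cells, and 4 were higher and 0 lower in Kif3a CRISPR cells. These are 12% and 16% of the list, against 14.9% and 20.1% of all tested genes called in either direction. All 4 in Kif3a CRISPR cells were higher, and 9.19% of all tested genes were called higher there. The difference in share was not tested. Mpv17l2, an inner-membrane protein needed for assembly, was at 47.1, 33.2 and 35.0 CPM in Ofd1 CRISPR cells and 35.9 and 35.3 CPM in Kif3a CRISPR cells, against 25.01 and 23.95 CPM in GFP control cells. All edited libraries were higher than both controls. The log2 fold change was 0.65 (SE 0.13, adjusted p 0.00761) in Ofd1 CRISPR cells and 0.54 (SE 0.14, adjusted p 0.0208) in Kif3a CRISPR cells, the first call being lost without GFP control replicate 2 (0.0570) and the second without GFP control replicate 1 (0.0849) or 2 (0.102) or Kif3a CRISPR replicate 1 (0.148) or 2 (0.0893). Rpusd4, a pseudouridine synthase that acts on the large ribosomal RNA, also rose in both (log2 fold change 0.36, SE 0.08, adjusted p 0.0129 in Ofd1 CRISPR cells; 0.36, SE 0.09, adjusted p 0.0148 in Kif3a CRISPR cells), with both calls lost without GFP control replicate 1 (0.0834 and 0.0774) or 2 (0.143 and 0.125) and the Kif3a call without Kif3a CRISPR replicate 1 (0.0576) or 2 (0.0784). Malsu1, a factor that binds the large subunit during assembly, fell in Ofd1 CRISPR cells (log2 fold change -0.29, SE 0.09, adjusted p 0.0460), a call lost without either control library (0.198 and 0.244) and without Ofd1 CRISPR replicate 1 (0.0964) or 2 (0.118), by DESeq2 (0.0685) and with library totals only (0.0703). The other 2 that rose in Kif3a CRISPR cells were Trub2, a pseudouridine synthase (log2 fold change 0.26, SE 0.08, adjusted p 0.0351), and Mettl17, which acts in assembly of the small subunit (0.32, SE 0.09, adjusted p 0.0287). The Trub2 call was lost without either control library (0.182 and 0.192), without either Kif3a CRISPR library (0.0725 and 0.144), by DESeq2 (0.0807) and without the filter on low counts (0.0526). The Mettl17 call was lost without either control library (0.157 and 0.141) and without either Kif3a CRISPR library (0.146 and 0.0829).

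Of 14 genes listed with translation factors, 1 was lower in each comparison, or 7.14% of the list, against 14.9% and 20.1% of all tested genes. It is carried under the ID 2810006K23Rik (log2 fold change -0.26, adjusted p 0.0440 in Ofd1 CRISPR cells and -0.40, adjusted p 0.00771 in Kif3a CRISPR cells). Its Ofd1 call held in 1 of 7 fits that leave out a library, that without Ofd1 CRISPR replicate 3 (0.0541 to 0.267 in the others), and was lost by DESeq2 (0.0848), with library totals only (0.0697), without the filter on low counts (0.0549) and with the 2 groups alone (0.0554), and its Kif3a call was lost without GFP control replicate 1 (0.0797) or Kif3a CRISPR replicate 1 (0.0840). Of 21 genes for mitochondrial transcription and RNA processing none passed in Ofd1 CRISPR cells by edgeR, where 4 had an unadjusted p under 0.05. The share of the list called in Kif3a CRISPR cells was 14.3%, against 20.1% of all tested genes. In Kif3a CRISPR cells Supv3l1, a helicase of mitochondrial RNA decay, was higher (log2 fold change 0.26, SE 0.08, adjusted p 0.0439). Grsf1, which binds RNA in mitochondrial RNA granules (-0.23, SE 0.07, adjusted p 0.0435), and Mterf1b, a termination factor paralogue (-1.06, SE 0.34, adjusted p 0.0465), were lower there. The level of Mterf1b was low, at 0.95 and 0.97 CPM in Kif3a CRISPR libraries, against 1.67 and 2.36 CPM in GFP control libraries. It was not tested under the filter of a mean of at least 2 CPM. Each of these 3 calls was lost without either control library or either Kif3a CRISPR library, at adjusted p of 0.0890 to 0.243 for Supv3l1, 0.151 to 0.252 for Grsf1 and 0.0686 to 0.286 for Mterf1b, and those of Supv3l1 (0.0582) and Grsf1 (0.0635) also without Ofd1 CRISPR replicate 2. DESeq2 did not call Supv3l1 (0.0774) or Mterf1b (0.118), Grsf1 (0.0690) and Mterf1b (0.0508) were lost with library totals only, and Supv3l1 (0.0559) and Grsf1 (0.0512) without the filter on low counts. Over all 5 pathway lists DESeq2 called 7 genes in Ofd1 CRISPR cells and 10 in Kif3a CRISPR cells, where edgeR called 8 and 13. Without GFP control replicate 1 edgeR called 3 and 2 of them, and without replicate 2 it called 2 and 3. Without Kif3a CRISPR replicate 1 or 2 the Kif3a count was 1 or 5, and without Ofd1 CRISPR replicate 1, 2 or 3 the Ofd1 count was 5, 5 or 14.

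Among 13 nuclear regulators known to act on genes for mitochondrial proteins or on ribosome production, 2 were higher and 2 lower in each comparison. These are 30.8% of the list in each, against 14.9% and 20.1% of all tested genes. The list was chosen with earlier results of these data known, and the difference in share was not tested. Mycl, a MYC-family factor that binds the E-box, was at 660.3, 551 and 534 CPM in Ofd1 CRISPR cells and 558 and 535 CPM in Kif3a CRISPR cells, against 411 and 408 CPM in GFP control cells. It rose in both (log2 fold change 0.51, SE 0.09, adjusted p 0.00349; 0.42, SE 0.10, adjusted p 0.0112), the Kif3a call being lost without GFP control replicate 1 (0.0732) or 2 (0.0656) or Kif3a CRISPR replicate 1 (0.106). Mycn, the family member known as a Hedgehog target in granule neuron progenitors, was at 57.4, 48.7 and 52.2 CPM in Ofd1 CRISPR cells and 43.4 and 45.1 CPM in Kif3a CRISPR cells, against 67.2 and 63.1 CPM in GFP control cells. It fell in both (log2 fold change -0.30, SE 0.08, adjusted p 0.0281; -0.56, SE 0.09, adjusted p 0.00144); the Ofd1 call was lost without either control library (0.238 without replicate 1, 0.0996 without replicate 2), when Ofd1 CRISPR replicate 2 was left out (0.0910), and when Kif3a CRISPR replicate 1 (0.0506) or 2 (0.0503) was. Max, the partner with which MYC-family proteins bind DNA, also rose in both (log2 fold change 0.27, SE 0.07, adjusted p 0.0237; 0.31, SE 0.08, adjusted p 0.0148), the Ofd1 call being lost without either control library (0.130 and 0.196) and without Ofd1 CRISPR replicate 1 (0.0564), and the Kif3a call without either control library (0.0843 and 0.119) and without Kif3a CRISPR replicate 1 (0.118). Atf4, the factor of the integrated stress response, was at 309.7, 391 and 399.9 CPM in Ofd1 CRISPR cells and 329 and 394 CPM in Kif3a CRISPR cells, against 574 and 631 CPM in GFP control cells. It fell in both (log2 fold change -0.72, SE 0.11, adjusted p 0.00174; -0.74, SE 0.12, adjusted p 0.00169), the Kif3a call being lost without Kif3a CRISPR replicate 1 (0.0566). The levels of these regulators and of the members are set side by side only, and no link between them was tested.

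Promoter windows from 250 bases before to 50 bases after the start were in the table for 68 of the 77 members, in 74 windows, and for 9686 of the tested genes. The members Mrps34, Mrpl15, Mrpl4, Mrpl13, Mrps35, Mrpl19, Mrpl54, Mrpl38 and Mrps28 were not among them. Motifs were searched on both strands, and a gene counted where any of its windows held a match. CCGGAAG, the ETS motif seen above in Mrpl34 and Mrpl3, was in 36.8% of the members (25 genes), against 19.8% of tested genes and 9.93% of all genes with windows. AAGATGG, the motif of YY1, was in 19.1% (13 genes), against 8.32% and 7.28%. GCGCATGC, the NRF1 motif seen in Mrpl39, was in 11.8% (8 genes), against 6.22% and 3.05%. CACGTG, the E-box seen in Mrpl20 and Mrpl2, was in 7.35% (5 genes), against 11.8% and 8.09%. The composite ATF4 motif TGATGCAA and the ERR motif TCAAGGTCA were in 0 of the 68, against 0.702% and 0.33% of tested genes. The matches are letters in a window and not binding sites, no difference between these shares was tested, and the GC content of the windows had a median of 58.5% in members and 61.3% in tested genes.

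The change of the members was set out by motif, with no test of a difference. Members with the ETS motif had a median log2 fold change of 0.01 in Ofd1 CRISPR cells and 0.06 in Kif3a CRISPR cells, and members without it 0.00 and 0.06. The 5 members with an E-box had medians of 0.10 and 0.12, and the 63 without it 0.00 and 0.06. The 8 members with the NRF1 motif had medians of 0.05 and 0.08, and the 60 without it 0.00 and 0.06. The 13 members with the YY1 motif had medians of 0.02 and 0.06, and the 55 without it 0.00 and 0.06. In Kif3a CRISPR cells, where 20.1% of all tested genes were called, 3 of the 25 members with the ETS motif and 5 of the 43 without it were called. The 3 went in opposite directions, Mrps23 and Mrpl3 being higher and Mrpl34 lower, and the match of Mrps23 lies after the start, outside the stretch shown. Of the members with an E-box, 2 were called there, Mrpl20 higher and Mrpl2 lower. Of the members with the NRF1 motif 1 of 8 was called in Kif3a CRISPR cells, and of those with the YY1 motif 0 of 13. In Ofd1 CRISPR cells, where 14.9% of all tested genes were called, 1 of 25 members with the ETS motif, 1 of 5 with an E-box, 0 of 8 with the NRF1 motif and 0 of 13 with the YY1 motif were called.

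Some members start close to a neighbour read the other way. A divergent start within 1000 bases was found for 27 of the 68 members (39.7%), against 21.1% of tested genes with windows, a difference that was not tested. In one pair both genes are members: the starts of Mrpl46 and Mrps11 lie 42 bases apart. Mrps11 was at 29.8, 32.2 and 27.8 CPM in Ofd1 CRISPR cells and 30.1 and 32.3 CPM in Kif3a CRISPR cells, against 29.1 and 27.9 CPM in GFP control cells, and Mrpl46 at 23.9, 26.0 and 24.9 CPM in Ofd1 CRISPR cells and 23.2 and 27.2 CPM in Kif3a CRISPR cells, against 25.7 and 22.1 CPM in GFP control cells. Neither passed in a comparison with the control. Mrpl2 starts 141 bases from Klc4, a kinesin light chain, which was higher in Ofd1 CRISPR cells (log2 fold change 0.36, adjusted p 0.0264) where Mrpl2 was lower. Mrps12 starts 147 bases from Sars2, the mitochondrial seryl-tRNA synthetase, which was higher in Kif3a CRISPR cells (log2 fold change 0.42, adjusted p 0.0362), while Mrps12 itself did not pass (0.07, SE 0.10). The other 2 called neighbours were lower: Rab6a, which overlaps Mrpl48 by 36 bases at their starts, in Ofd1 CRISPR cells (log2 fold change -0.26, adjusted p 0.0257), and Fau, the neighbour of Mrpl49, in Kif3a CRISPR cells (-0.33, adjusted p 0.0351). Thus 2 of 25 tested neighbours were called in each comparison, where 14.9% and 20.1% of all tested genes were. All of these neighbours lost their call without either control library and without 1 or more edited libraries, at adjusted p of 0.0510 to 0.198 for Klc4, 0.0643 to 0.213 for Rab6a, 0.0796 to 0.238 for Sars2 and 0.0551 to 0.293 for Fau. The sources used here do not name the strand setting of the counting, so reads of overlapping neighbours and of pseudogene copies could enter a member's count by an unknown amount.

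**Figure D5:**
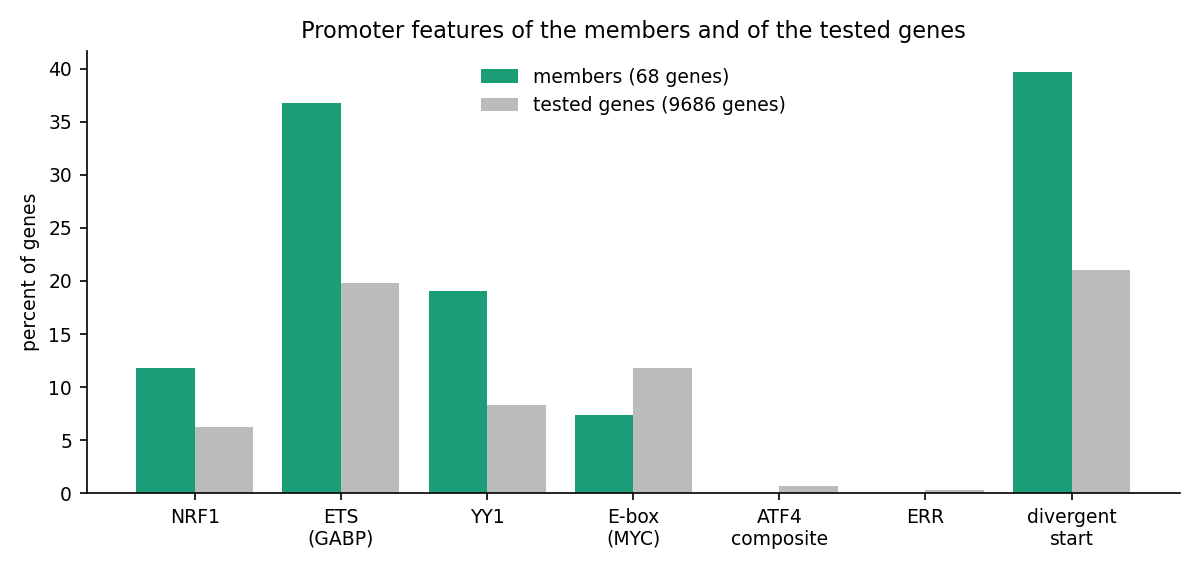
Share of members (68 genes, green) and of tested genes (9686, grey) whose promoter windows hold each motif, or that have a divergent start within 1000 bases, in percent of genes. The ETS, YY1 and NRF1 motifs and divergent starts were found for 36.8%, 19.1%, 11.8% and 39.7% of members, against 19.8%, 8.32%, 6.22% and 21.1% of tested genes, and the E-box for 7.35% against 11.8%; no difference was tested.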

How the data were processed

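RNA sequencing of 7 libraries (Ofd1 CRISPR 3, Kif3a CRISPR 2, GFP control 2) was analysed. The deposited table holds raw counts, whole numbers of reads per gene symbol, without normalization. Per the labels' protocols, libraries were made with a stranded poly-A kit and read as single-end reads of 75 bases. Per the submitters' processing notes, STAR, DESeq2 and the build mm9 were used, without a stated role or version; the sources used here name no read counter, annotation or strand setting. RefSeq promoter windows of GRCm38.p6 and GENCODE M21 transcript lengths served by symbol only, and no coordinate was carried between builds.

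Genes passing filterByExpr (12875, holding 99.96% of counts) were tested with edgeR 4.0.16 in R 4.3.3: TMM factors, 1 quasi-likelihood fit to all 7 libraries (4 residual degrees of freedom) and Benjamini-Hochberg adjustment, called at an adjusted p under 0.05. An SE is the log2 fold change divided by the square root of F. The fit was tested on simulated data. Alternatives were DESeq2 1.42.0, other scaling factors, other filters on low counts, the 2 groups alone, a replicate block and leaving out each library.

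Named genes were up to 10 called members per direction and comparison, the 3 highest and 3 lowest per kb, Mrpl12, Mrps18a, Mrps18b, Mrps18c, Mrps30 and Mrps36, up to 3 called genes per pathway list, and Ofd1, Kif3a, Mycn and Atf4; Mrpl42, and Trub2, Max in Kif3a CRISPR cells, and members and neighbours named for near misses or shared promoters, were picked with their values in view. The members and lists were chosen with earlier results of these data known. Mitochondrially encoded genes were not analysed here. Reads carry no molecular identifiers. In every pair of libraries of a group the counts differed by more than sampling noise.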

Additional observations from a re-analysis of the deposited data

How the results depend on the processing

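Of 1259 values of named genes under alternatives, 1088 stayed on their side of the threshold, 158 lost their call and 13 gained one. Only a call of the main fit could be lost, and most of the 1259 values were not called there, so their number does not measure how firm the calls were. Most losses came with a library left out. In 44 of the 1259 values the sign changed, 35 with a library left out. None of these 44 was called in either fit, and their log2 fold changes were at most 0.15 in size. Members higher in Ofd1 CRISPR cells (1) numbered 3 with library totals only, 3 with a mean of at least 2 CPM, 0 without a filter on low counts, 0 by DESeq2, 0 with the 2 groups alone and 0 to 1 with a library left out. Members lower (3) numbered 0 to 4 with a library left out, and the 8 pathway genes called 2 to 14. In Kif3a CRISPR cells, members higher (5) numbered 0 to 6 and members lower (4) 0 to 5 with a library left out; members lower were 2 with library totals only, 2 without a filter and 2 by DESeq2. There the median log2 fold change (0.06) ran from -0.0212 to 0.122. The 13 pathway genes called numbered 11 to 15 with an Ofd1 CRISPR library left out, 16 with the 2 groups alone and 17 with a replicate block. They were fewer whenever a Kif3a CRISPR or GFP control library was left out. For Ofd1 CRISPR over Kif3a CRISPR the median (-0.03) ran from -0.0939 to 0.034. Leaving out a library of a pair leaves 1, which is assumed to vary like the other groups.

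Replicate numbers are shared between groups, and the labels do not say whether same-numbered samples belong together. Correlations of same-numbered deviations were 0.20 and 0.19 for Ofd1 CRISPR and GFP control, 0.23 and 0.15 for Ofd1 CRISPR and Kif3a CRISPR, and -0.01 for Kif3a CRISPR and GFP control. With a replicate block, which leaves Ofd1 CRISPR replicate 3 without a partner, 3 members were higher and 5 lower in Ofd1 CRISPR cells, 15 pathway genes were called there and 1 in Ofd1 CRISPR over Kif3a CRISPR; over all genes 3496 were called in Ofd1 CRISPR cells, against 1915 without the block. In Kif3a CRISPR cells the block gave 6 members higher and 6 lower and 17 pathway genes. Over all genes 3575 were called there, against 2584 without the block. For Ofd1 CRISPR over Kif3a CRISPR 191 genes were called, against 23. The causes were not tested. The 2 control libraries limit every comparison with the control.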
